A study of Mus musculus with 8 samples.

Results

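Noggin (Nog), the 4 genes for Id proteins (Id1, Id2, Id3, Id4), the ligand gene Bmp4, the receptor genes Bmpr1a and Bmpr2 and the inhibitory Smad genes Smad6 and Smad7 were examined in C2C12 muscle cells that carried an HDAC4 retrovirus or a control retrovirus. These 10 genes, of 14510 genes named on the array, were found through the probes that the platform annotation assigns to exactly 1 gene. They had 14 probes of 31769. The set was chosen with log2 differences between HDAC4 and Neo in view, selected on earlier results of these same 8 arrays, so the differences of its genes are given here as a description and without a test.

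C2C12 is an established mouse myoblast line of C3H origin that fuses into multinucleate myotubes when serum is withdrawn. The HDAC4 group held 4 samples of cells stably selected with a retrovirus encoding HDAC4 and Neo, and the Neo group held 4 samples of cells stably selected with a retrovirus encoding Neo alone. Both groups reached 90% confluence before differentiation in 2% horse serum, which lasted 4 days. HDAC4 is a class IIa deacetylase known to bind and repress MEF2 factors, and the study asked how the virus alters transcripts of differentiated muscle cells. Each array compared RNA of the cells, labelled with Cy5, with a murine reference RNA labelled with Cy3, and the unit is the log2 ratio of the 2 channels with each array's median set to 0. Cells over reference is the likely direction of that ratio, read from muscle genes far above 0, and every signed value depends on it. Nothing in the labels says that samples of a group came from separate infections or cultures, so the spread between them may be technical. Total RNA of a culture was measured, so fewer cells of a type and less RNA per cell cannot be told apart.

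Bone morphogenetic proteins (BMPs) are secreted ligands that bind paired type I and type II receptor kinases, which phosphorylate Smad1, Smad5 and Smad9. These enter the nucleus with Smad4 and switch on target genes, among them the Id genes and the inhibitory Smads, which feed back on the receptors. Noggin binds BMPs outside the cell and keeps them from their receptors. Id proteins have a helix-loop-helix domain but no basic DNA-binding region. They tie up E proteins, the partners that MyoD and myogenin need in order to bind DNA. In C2C12 cells BMP treatment is known to block myotube formation and to turn the cells towards an osteoblast fate.

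Promoter windows of Id2, Id3 and Smad6 are shown because these are BMP target genes whose windows hold letters bound by Smad proteins. The windows run from 250 bases before to 50 bases after the start of each gene, 5′ to 3′ on the gene's strand, and come from RefSeq, build GRCm38.p6 (Id2 chr12:25096043-25096342, minus strand, Id3 chr4:136143572-136143871, plus strand, Smad6 chr9:64022010-64022309, minus strand). Capitals mark the letters GGCGCC in Id2. In Id3 they mark the letters CAGAC on either strand. In Smad6 they mark the palindrome GTCTAGAC.
Id2: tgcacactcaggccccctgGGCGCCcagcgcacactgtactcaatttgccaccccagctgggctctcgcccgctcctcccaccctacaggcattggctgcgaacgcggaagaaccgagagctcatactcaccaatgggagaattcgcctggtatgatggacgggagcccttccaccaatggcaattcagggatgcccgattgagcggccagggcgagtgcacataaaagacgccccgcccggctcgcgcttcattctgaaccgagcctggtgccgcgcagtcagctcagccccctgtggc
Id3: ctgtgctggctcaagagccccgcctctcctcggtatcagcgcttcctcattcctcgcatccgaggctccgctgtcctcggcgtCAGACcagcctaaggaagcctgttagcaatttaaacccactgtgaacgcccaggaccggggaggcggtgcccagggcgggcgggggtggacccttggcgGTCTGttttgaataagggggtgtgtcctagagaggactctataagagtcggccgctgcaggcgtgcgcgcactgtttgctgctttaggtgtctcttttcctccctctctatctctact
Smad6: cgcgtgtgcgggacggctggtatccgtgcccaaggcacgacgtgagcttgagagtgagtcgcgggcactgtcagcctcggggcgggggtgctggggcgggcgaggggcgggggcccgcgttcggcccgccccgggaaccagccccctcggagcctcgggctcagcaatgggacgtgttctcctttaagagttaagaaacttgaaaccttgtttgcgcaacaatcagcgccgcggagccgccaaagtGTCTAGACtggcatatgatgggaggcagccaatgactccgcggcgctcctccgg
Windows of 7 of the 10 genes were searched, and those of Nog, Id1 and Smad7 were not used here. GGCGCC was in 4 of the 7 (Id2, Id4, Bmpr1a and Bmpr2) and in 11.9% of all 32817 windows. CAGAC, counted on both strands, was in 1 of the 7, that of Id3, at 2 places, and in 49.6% of all windows. GTCTAGAC, a palindrome added to the search after the sequences were seen, spans the start of Smad6 from base -4 and was in 0.213% of all windows. The E-box letters CANNTG were in the windows of Id2, Smad6 and Bmp4 and in 72.3% of all. The consensus letters of a MEF2 site, a palindrome searched with its inner bases left free, were in none of the 7 and in 3.69% of all. These are matches of letters and no evidence of binding, and their relation to the differences given below was not tested.

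The arrays numbered 1 stood apart from the others in both groups. Across probes their mutual correlation was 0.94, whereas none of their correlations with the remaining 6 arrays was above 0.90, and those 6 correlated among themselves at 0.93 or more. HDAC4 arrays carried between 17014 and 18521 values and Neo arrays between 19248 and 22193. Genes of differentiated muscle lay far above the reference, with a mean log2 ratio over 7 measured markers of 8.07 to 8.52 on HDAC4 arrays and 8.14 to 8.73 on Neo arrays. The satellite cell gene Pax7, the osteoblast genes Sp7 and Ibsp and the adipocyte genes Adipoq and Plin1 had probes but no value on any array. The osteoblast gene Dmp1 had 2 Neo values and the adipocyte gene Fabp4 had 3, and neither had an HDAC4 value, so they were not tested. Other markers of these cell types were measured. Phex, of osteoblasts, averaged -2.06 in HDAC4 and -2.14 in Neo. For the adipocyte genes the means were -3.13 and -2.95 (Lpl) and -0.16 and 0.02 (Pparg). The myoblast gene Myf5 lay above the reference, at 1.09 in HDAC4 and 1.49 in Neo. Mki67, Top2a, Cdk1 and Ccna2 lay below it, averaging -3.91 to -3.05 on HDAC4 arrays and -4.19 to -3.56 on Neo arrays. None of the 15 tested markers of muscle, dividing myoblasts, osteoblasts or adipocytes passed between the groups (limma adjusted p of 0.723 or more). For muscle this is limited by an inferred floor of the reference channel, described with Nog below. All values of Ckm, Myog, Tnnt3, Tnnc1, Mylpf and Atp2a1, and 6 of 8 of Des, were at that floor, as were 5 of 7 of Myf5. The 198 unlisted probes there on every array had a median difference of -0.56. The muscle differences hold any such shift, so equal differentiation is not shown. Hdac4 itself has no probe under that name in the annotation, and the labels were therefore not checked against its level.

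Of the 10 genes 9 had a value. Id4 had 1 probe, with no value on any array. The third probe of Bmpr1a had a value, 0.28, on Neo replicate 3 alone. It is left out of the values given by probe. The gene-level difference of Bmpr1a (-0.15) includes it, as do most other settings. The higher of the 2 other Bmpr1a probes had no value on HDAC4 replicate 3, so the gene value there was that of the lower probe alone (-0.39). The difference of Bmpr1a was -0.06 with probes centred before averaging and -0.04 with each probe as its own row. The other 12 probes had at least 3 values in each group, and 10 of them had a lower mean in HDAC4. At gene level 8 of the 9 genes were lower and 1 was higher. The higher one was Bmpr2, whose difference rounds to 0.00, so its sign carries no weight. The median difference of the 9 was -0.26, beside a median of -0.0028 over all 14750 rows of the fit, of which 50.5% were lower. On 2 of the 12 probes, those of Nog and Id1, every HDAC4 value was below every Neo value, and 3.18% of all probes measured as often did so. Without the arrays numbered 1 this held for 6 probes of 5 genes (Nog, Id1, Id3, Bmp4 and Smad7), beside 14.1% of all those probes. The genes were chosen with this comparison in view, so nothing is read from these counts.

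**Figure D1:**
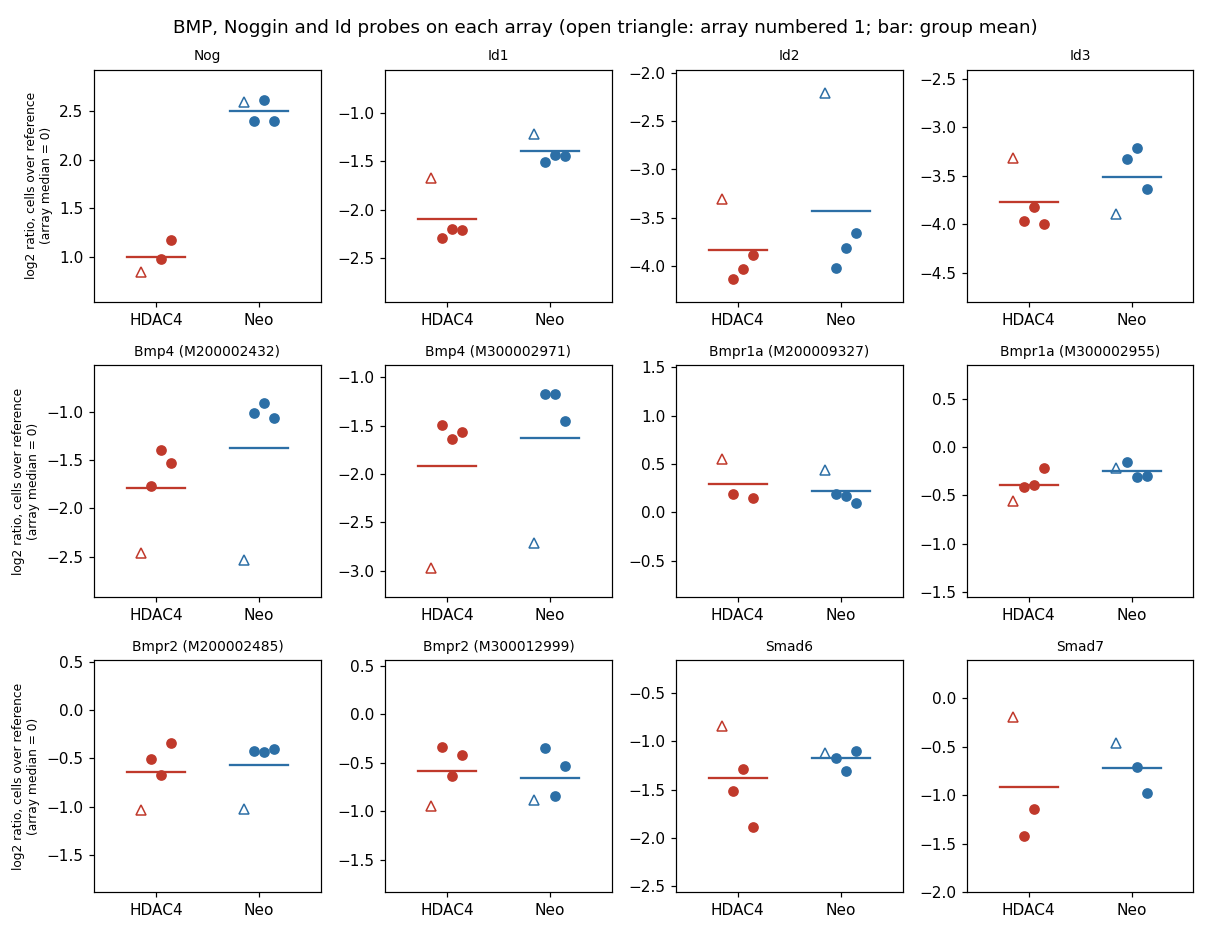
Log2 ratio of cells over reference (array median at 0) for the 12 probes with at least 3 values in each group, HDAC4 left of Neo. Each mark is 1 array, open triangles are the arrays numbered 1, bars are group means, and all panels span the same 2.4 log2 units. All HDAC4 marks lie under the Neo marks for Nog and Id1, and the arrays numbered 1 lie apart for Id2 and Bmp4.

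Nog, the antagonist, differed most. Its log2 ratio was 0.84, 0.98 and 1.18 on HDAC4 replicates 1, 3 and 4, with no value on HDAC4 replicate 2, and 2.60, 2.40, 2.62 and 2.40 on Neo replicates 1 to 4. The HDAC4 values all lay below the Neo values by more than 1 log2 unit. The mean was 0.998 ± 0.17 (SD, n = 3) in HDAC4 and 2.51 ± 0.12 (SD, n = 4) in Neo, a difference of -1.51 ± 0.11 (SE), or 2.84-fold lower in HDAC4. The difference within same-numbered arrays was -1.75, -1.64 and -1.23 for numbers 1, 3 and 4.

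All 7 Nog values had the form of a reference signal set to a minimum. For these values 10 times the ratio is a whole number, and such values rise from 115 at 9 to 1921 at 10, so a floor of 10 units in the reference channel is inferred and the value then follows the cells' channel alone. In those units Nog stood at 18, 20 and 23 in HDAC4 replicates 1, 3 and 4, and at 61, 53, 62 and 54 in Neo replicates 1 to 4. The inferred floor matters to the size of the difference. In 198 probes every one of the 8 values was at the floor. None of these probes is in a gene list used here, and they had a median difference of -0.56, with 91.4% of them lower in HDAC4. The difference of Nog was beyond that median, and 13 of the 198 differed by as much or more in the same direction. Among the 81 of them whose mean ratio lay within 1 log2 unit of that of Nog, the median was -0.58, the range was -1.93 to 1.47, and 8 differed by as much. With each array's mean shift of floor probes taken off, Nog stood at 1.43, 1.09 and 1.25 in HDAC4 and at 2.63, 1.98, 2.16 and 2.10 in Neo. The groups still did not overlap, and the difference was -0.96, or 1.94-fold lower in HDAC4. The 198 probes include those of Fn3k, Slc2a4 and Cav3, which differed by -2.01, -1.82 and -1.10. Whether the shift is technical or a change in the cells' RNA was not tested. Taking it off may remove such a change too, so -0.96 is an alternative value and not a corrected one. The part of that shift in the difference of Nog was not tested beyond these values.

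**Figure D2:**
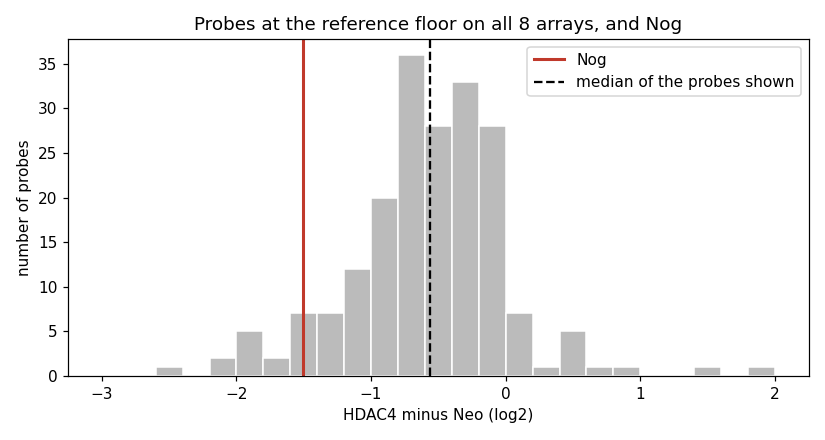
Number of probes by difference between HDAC4 and Neo (log2) for the 198 probes whose 8 values are all at the inferred reference floor and which are in no gene list. The dashed line is their median, -0.56, and the red line is Nog, at -1.51, in the lower tail of the distribution.

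Bmp4, a BMP ligand that Noggin binds, was read by 2 probes, both below the reference on every array. The first stood at -2.46, -1.77, -1.40 and -1.53 in HDAC4 replicates 1 to 4 and at -2.53, -1.01, -0.91 and -1.06 in Neo. The second stood at -2.97, -1.50, -1.64 and -1.57 in HDAC4 and at -2.71, -1.17, -1.17 and -1.46 in Neo. In both groups and with both probes the array numbered 1 was the lowest, by 0.90 or more below the mean of the other 3 arrays of its group. Over all 4 arrays the differences were -0.41 ± 0.45 and -0.29 ± 0.51 (SE between arrays, which holds the shift of the arrays numbered 1), with overlapping groups. Taken over the same-numbered pairs, the SE was 0.17 for the first probe, lower in HDAC4 in 3 of 4 pairs, and 0.071 for the second, lower in 4 of 4. On replicates 2 to 4 the first probe averaged -1.57 ± 0.19 in HDAC4 and -0.99 ± 0.08 in Neo (SD, n = 3 each), and the second -1.57 ± 0.07 in HDAC4 and -1.27 ± 0.16 in Neo. There both probes had every HDAC4 value below every Neo value, with differences of -0.57 and -0.30. Within the pair numbered 1 the first probe differed by 0.06 and the second by -0.26.

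The receptor genes differed little. Bmpr1a, a type I receptor, had 2 probes in both groups. The first averaged 0.30 ± 0.22 (SD, n = 3) in HDAC4 and 0.22 ± 0.15 (SD, n = 4) in Neo, and the second -0.39 ± 0.14 in HDAC4 and -0.24 ± 0.07 in Neo (SD, n = 4 each). Their differences had opposite signs, 0.08 ± 0.14 and -0.15 ± 0.08 (SE), and the groups overlapped on both. Bmpr2, the type II receptor for BMPs, had differences of -0.07 ± 0.21 and 0.07 ± 0.19 (SE) on its 2 probes, again with opposite signs and overlapping groups. On both Bmpr2 probes the arrays numbered 1 were the lowest of each group, between -1.03 and -0.88.

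The inhibitory Smads spread more widely between HDAC4 arrays (SD 0.44 for Smad6 and 0.65 for Smad7) than the receptor probes did (SD 0.14 to 0.29). Smad6, which acts mainly against BMP receptors and whose window holds the Smad palindrome at its start, stood at -0.84, -1.52, -1.29 and -1.88 in HDAC4 replicates 1 to 4 and at -1.12, -1.18, -1.31 and -1.10 in Neo. The HDAC4 arrays spread on both sides of the Neo arrays, which lay close together, and the difference was -0.21 ± 0.22 (SE). Smad7, which acts against both BMP and TGF-beta receptors, had 6 values. They were -0.19, -1.42 and -1.14 in HDAC4 replicates 1 to 3 and -0.46, -0.71 and -0.98 in Neo replicates 1, 3 and 4. The groups overlapped because HDAC4 replicate 1 was the highest array of all, and the difference was -0.20 ± 0.40 (SE). Without the arrays numbered 1, where each group has 2 values, the difference was -0.44 with no overlap.

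Id1 was the Id gene in which the groups stood apart. Its log2 ratio was -1.67, -2.29, -2.20 and -2.21 in HDAC4 replicates 1 to 4 and -1.22, -1.50, -1.43 and -1.44 in Neo. All 4 HDAC4 arrays lay below all 4 Neo arrays, with the array numbered 1 highest in both groups. The mean was -2.10 ± 0.28 in HDAC4 and -1.40 ± 0.12 in Neo (SD, n = 4 each), a difference of -0.70 ± 0.16 (SE), or 1.62-fold lower in HDAC4. On replicates 2 to 4 the spread was small, with -2.24 ± 0.05 in HDAC4 and -1.46 ± 0.04 in Neo (SD, n = 3 each), a difference of -0.78. The pairs gave -0.46, -0.79, -0.77 and -0.77 for numbers 1 to 4. All Id values lay below the reference, where the rule for the inferred reference floor marks none. A floor in the cells' channel was not examined.

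Id3, whose window holds CAGAC letters at 2 places, stood at -3.32, -3.96, -3.83 and -3.999 in HDAC4 replicates 1 to 4 and at -3.89, -3.33, -3.21 and -3.64 in Neo. The arrays numbered 1 went the other way from the rest: HDAC4 replicate 1 was the highest of its group and Neo replicate 1 the lowest. The difference over all arrays was -0.26 ± 0.22 (SE), with overlap. On replicates 2 to 4 it was -0.54 without overlap, from -3.93 ± 0.09 in HDAC4 and -3.39 ± 0.22 in Neo (SD, n = 3 each), and within the pair numbered 1 it was 0.58.

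Id2, whose window holds GGCGCC, stood at -3.30, -4.13, -4.03 and -3.88 in HDAC4 replicates 1 to 4 and at -2.21, -4.02, -3.81 and -3.66 in Neo. The groups overlapped, and most of the difference of -0.41 ± 0.45 (SE) came from the pair numbered 1, at -1.09, against -0.11, -0.22 and -0.22 for the other numbers. HDAC4 was lower in all 4 pairs, and over the pairs the SE was 0.23. Without that pair the difference was -0.18. The 3 measured Id genes were thus lower in HDAC4 by mean, and the amounts on replicates 2 to 4 were -0.78 for Id1, -0.54 for Id3 and -0.18 for Id2.

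**Figure D3:**
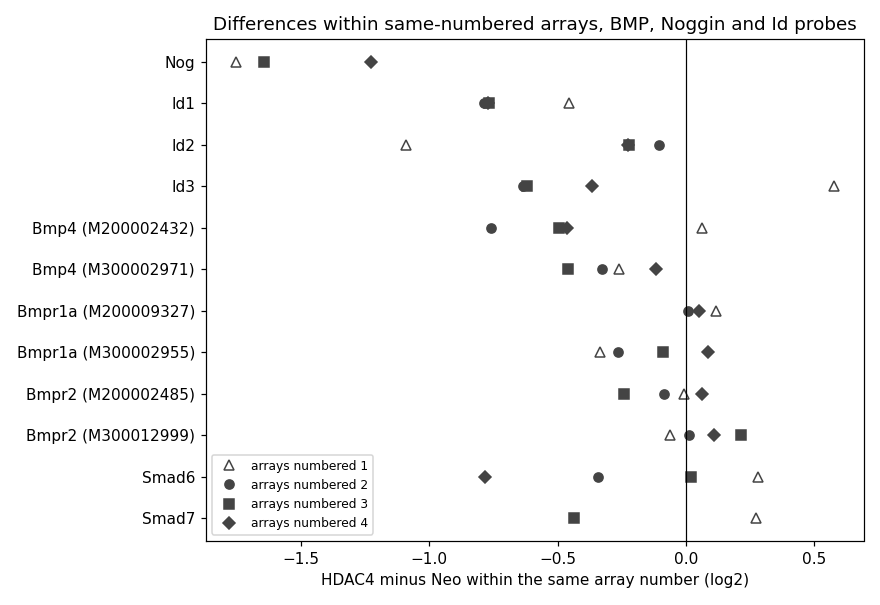
Difference between the HDAC4 and the Neo array of the same number (log2) for the 12 probes, with open triangles for the arrays numbered 1. Nog and Id1 lie left of 0 for every number with both values, from -1.75 to -1.23 and from -0.79 to -0.46, while Id3 lies at 0.58 for number 1 and left of 0 for the others.

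The position of the arrays numbered 1 differed from gene to gene. Averaged over the 2 groups, they lay 1.17 above the others for Id2 and 0.40 above for Id1 and for Smad6. The 2 Bmp4 probes gave -1.22 and -1.42, and the 2 Bmpr2 probes gave -0.56 and -0.39. Over the 14746 probes with 8 values the median absolute deviation of this kind was 0.29, and 4.88% exceeded 1.

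Other genes of the pathway were taken from a list of 68, of which 56 had a probe and 31 could be tested. In the limma fit of all 14750 rows, 17 rows (0.115%) passed at an adjusted p under 0.05, 1 higher and 16 lower in HDAC4, and 9 passed with the replicate number as a block. Of the 31 genes 0 passed in limma, with 1 higher and 2 lower at an unadjusted p under 0.05. By sign 17 were lower and 14 higher, with a median difference of -0.05.

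Among ligands only Bmp6 could be tested, with a difference of -0.14 ± 0.18 (SE). The 4 tested receptors and co-receptors differed by -0.87 to 0.10. Acvr2b, an activin type II receptor that also serves BMPs, stood at -0.19, -1.28, -1.34 and -1.82 in HDAC4 replicates 1 to 4 and at -0.24, -0.18, -0.48 and -0.26 in Neo. HDAC4 replicates 2 to 4 lay below every Neo array and HDAC4 replicate 1 lay among them. The difference of -0.87 ± 0.30 (SE) had an adjusted p of 0.534 in limma over all arrays. It was -1.19 with an adjusted p of 0.0271 without HDAC4 replicate 1, and -0.65 with an adjusted p of 0.914 without HDAC4 replicate 4. Leaving out any other array gave an adjusted p of 0.468 or more. The related Acvr2a differed by 0.10 ± 0.28 (SE). The type I receptor Acvr1 differed by -0.18 ± 0.17 (SE). Acvrl1, another type I receptor, had 1 value in each group, and Bmpr1b had none. The BMP co-receptor gene Hjv, known from skeletal muscle and liver, had 8 values at the inferred floor and a difference of -0.26 ± 0.15 (SE), which was 0.32 with the floor shift removed.

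The extracellular modulators had 10 tested genes, 5 lower and 5 higher, with a median of -0.01. Crim1, a membrane protein with chordin-like repeats, differed by -0.40 ± 0.18 (SE; adjusted p = 0.676), and by -0.24 without HDAC4 replicate 3. Follistatin (Fst), which binds activins and some BMPs, differed by -0.36 ± 0.20 (SE; adjusted p = 0.781), and Bmper, a secreted BMP-binding protein, by -0.31 ± 0.23 (SE). Bmper was at -0.56 without HDAC4 replicate 1 and at -0.19 without HDAC4 replicate 2. The secreted antagonists Grem1, Nbl1 and Cer1 differed by -0.04 ± 0.28, 0.03 ± 0.14 and 0.12 ± 0.15 (SE). Their difference from Nog was not tested. Twsg1, a secreted BMP-binding protein, differed by 0.32 ± 0.26 (SE), the highest of the 10, and Fstl1, Fstl3 and Bmp1 by -0.14, 0.07 and 0.06.

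Inside the cell, the receptor Smads Smad1 and Smad5 and the common Smad4 differed by -0.05 ± 0.21, -0.06 ± 0.25 and -0.11 ± 0.16 (SE), with adjusted p of 0.938 or more in limma. Smad9 had no value. Tob1, an antiproliferative protein that binds receptor Smads, had the smallest p of the list. It stood at 1.96, 2.35, 2.07 and 2.09 in HDAC4 replicates 1 to 4 and at 1.77, 1.68, 1.64 and 1.55 in Neo, without overlap. Its difference of 0.46 ± 0.13 (SE) had an adjusted p of 0.372. Fkbp1a, which holds type I receptors inactive, differed by 0.35 ± 0.19 (SE; adjusted p = 0.785), and by 0.23 without HDAC4 replicate 1. The ubiquitin ligase gene Smurf1 and the Smad corepressor genes Ski and Skil differed by 0.12 ± 0.15, 0.15 ± 0.14 and 0.0008 ± 0.15 (SE).

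Of the 12 listed targets 5 could be tested, 3 lower and 2 higher, with a median of -0.20. The lowest were Gata2, a GATA factor, at -0.50 ± 0.45 (SE; adjusted p = 0.891), and Alpl, the alkaline phosphatase of osteoblasts, at -0.45 ± 0.37 (SE; adjusted p = 0.882). Hey1, a repressor that BMP and Notch both switch on, stood at 0.82, 0.27, 0.47 and 0.54 in HDAC4 replicates 1 to 4 and at 1.15, -0.43, -0.70 and -0.41 in Neo. Every HDAC4 array lay above Neo replicates 2 to 4 and below Neo replicate 1. The difference was 0.62 ± 0.36 (SE; adjusted p = 0.798 in limma), and 1.04 with an adjusted p of 0.0434 without Neo replicate 1. It was 0.43 with an adjusted p of 0.912 without Neo replicate 3, and leaving out any other array gave an adjusted p of 0.61 or more. Hey1 and Id1, both known as BMP targets, had mean differences of opposite sign, and this contrast was not tested. On the arrays numbered 1 both were lower in HDAC4. Msx1 and Dlx2, homeobox targets, differed by 0.09 ± 0.19 and -0.20 ± 0.21 (SE). The E protein genes Tcf3, Tcf4 and Tcf12, whose products Id proteins bind, differed by 0.04 ± 0.11, -0.20 ± 0.21 and -0.05 ± 0.12 (SE).

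**Figure D4:**
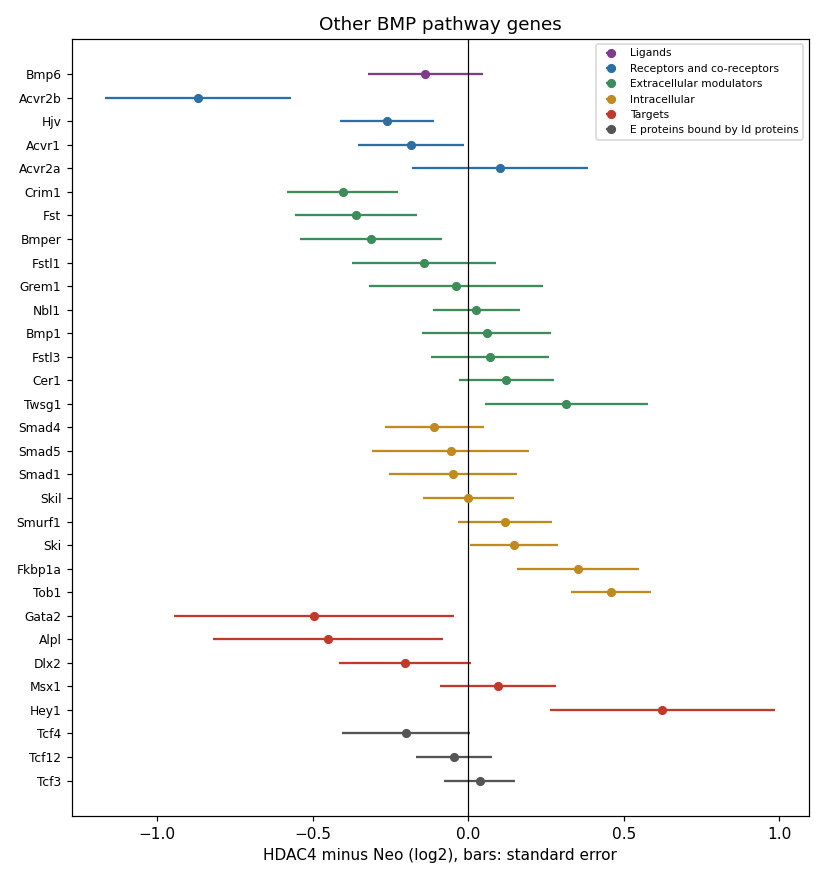
Difference between HDAC4 and Neo (log2) with its standard error for the 31 other pathway genes tested, in the colours of their roles. None passed in limma at an adjusted p under 0.05. The points run from -0.87 for Acvr2b to 0.62 for Hey1.

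Patterns over the arrays were compared by Pearson correlation with every named gene that had 8 values. Over the 7 arrays with a Nog value the most similar of 7934 genes were Fn3k, Igtp, Ip6k3, Txlnb and Kank3, with r from 0.98 to 0.99. With the group means taken off, their r with Nog lay between 0.00 and 0.73, so much of the likeness is the difference between the groups. The genes most like Id1, over 8 arrays, were Slc2a4, Gcat, Prss23, Cav3 and Serpinb6b, with r from 0.97 to 0.98, and these kept r of 0.87 to 0.95 within groups. All 8 values of Fn3k, Ip6k3, Txlnb, Slc2a4 and Cav3 were at the inferred reference floor, as were all 7 of Nog. Igtp, Kank3, Gcat, Prss23 and Serpinb6b had 0 values there. The shift of floor probes between the groups can thus enter the likeness to Nog. Arrays also share the spread of numbers 1 against the others, and no function is read from these values. Nog and Id1, the 2 genes whose groups stood apart, correlated at 0.82 over 7 arrays, and at -0.38 with the group means taken off. Over the same arrays the r of Nog was 0.55 with Bmpr1a, 0.34 with Bmp4, 0.27 with Id2, 0.25 with Id3, 0.15 with Bmpr2 and 0.14 with Smad6. With the group means taken off these were, in the same order, 0.24, 0.14, 0.13, -0.50, 0.15 and -0.82.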

How the data were processed

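RNA of 8 C2C12 samples was measured on 2-colour oligonucleotide arrays. The values deposited by the authors are log2 ratios, 1 for each of 31769 probes on each array. No scanner, background correction, normalization or software is named in the sources used here. The column medians, 0.00576 to 0.0286, belong to values already centred or nearly so. Per the labels, every sample was Cy5 and the reference Cy3, with no dye swap. A protocol in the labels names murine liver as the reference.

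Probes were named from GEO's platform annotation (18976 with 1 gene, 404 with several, which were given no name), with symbols updated through the RefSeq table of GRCm38.p6. Each array was centred on its median, and a gene's value was the mean over its probes. Genes and unnamed probes with at least 3 values in each group were compared with limma 3.58.1 in R 4.3.3 (lmFit, eBayes; Benjamini-Hochberg at 0.05). The procedure was tested on simulated normal values, drawn independently for each array. Those held neither the shift of the arrays numbered 1 nor that of floor probes, so the simulation does not cover these features of the data. Standard errors of probes are pooled within groups unless given over pairs, and those of pathway genes are limma's. A value is called at the floor where 10 times the ratio is 10 or more and whole within 0.001. Precision is limited by the 8 arrays.

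The genes, lists, motifs and alternatives were chosen with earlier results of these data known. Named were every measured gene of the set, the pathway genes that passed, the 8 with the smallest p, every measured BMP receptor and receptor Smad, and the 5 genes most like Nog and Id1. The other tested pathway genes, and some with too few values to be tested, were added after their values were seen. Deviations from group means of 2 same-numbered arrays correlated across genes and unnamed probes at 0.52, 0.30, 0.19 and 0.11 for numbers 1 to 4. All were above the limit of 0.1, so the arrays were treated as paired by number in the blocked fit. The shift shared by the arrays numbered 1 enters the group means and so all of these correlations. Arrays of different numbers were not compared, and the labels name no pairs, so pairing by number is not shown.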

Additional observations from a re-analysis of the deposited data

Results flagged for a closer look

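In 10 of 80 groups of 4 arrays, over the probes of the set and the pathway genes, 1 array lay far from the other 3 by Dixon's criterion. Chance alone gives this in about 1 of 20 groups of normal values. The 80 groups share the same arrays, and some genes enter with more than 1 probe. They are therefore not independent, and their count was not tested against that rate. In 9 of the 10 this was the array numbered 1. Id1 stood at -1.67 on HDAC4 replicate 1, above -2.29 to -2.20 on the others. Bmp4 stood at -2.97 on HDAC4 replicate 1 with one probe and at -2.53 on Neo replicate 1 with the other, and Bmpr2 at -1.02 on Neo replicate 1. On HDAC4 replicate 1 Fstl1 stood at 0.54. On Neo replicate 1 Hey1 stood at 1.15, Nbl1 at 1.19, Fstl3 at 0.52 and Bmp1 at -0.54. The other array was HDAC4 replicate 3, where Crim1 stood at -3.71, below -3.12 to -3.03.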

How the results depend on the processing

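Nog was lower in HDAC4 under all 19 alternatives that could measure it (-1.60 to -0.96), and not measured with floor values left out or all 8 values required. Its difference was -0.96 with the floor shift removed and -0.99 with arrays numbered 1 as a batch as well, a combination added after seeing the data. Id1 (-0.84 to -0.63), Id2 (-0.61 to -0.01), Id3 (-0.57 to -0.16), Bmp4 (-0.72 to -0.06), Smad6 (-0.39 to -0.04) and Bmpr1a (-0.20 to -0.04) were lower under all 21. Smad7 ranged from -0.57 to 0.05 and Bmpr2 from -0.11 to 0.13.

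The count of 17 rows was 9 with the replicate block, 92 with arrays numbered 1 as a batch and 291 without them, 519 with array weights, 4 with the floor shift removed, 53 with that and the batch, and 1 without floor values. It ranged from 0 to 73 with 1 array left out: 0 without Neo replicate 2, 3 or 4 (865, 911 and 903 at an unadjusted limma p under 0.05), 65 without Neo replicate 1, and 73, 4, 5 and 2 without HDAC4 replicate 1, 2, 3 and 4. The count of pathway genes was 2 without both arrays numbered 1 (Acvr2b, Hey1), 3 with array weights (Acvr2b, Hey1, Tob1), and 0 to 1 with 1 array left out. The replicate block changed no call among pathway genes. Hjv had 0.32 with the floor shift removed, with and without the batch. The causes were not tested. Values near the reference floor and missing values limit what can be compared.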

Other observations

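Of the listed pathway genes, 16 had some values but too few to be tested, and 8 of these had values on Neo arrays alone against 1 on HDAC4 arrays alone. Bambi, a receptor without a kinase domain that dampens BMP and TGF-beta signals, had 0 HDAC4 values and 3 Neo values, between -0.03 and 0.23. The ligand gene Bmp5 also had 0 HDAC4 values and 3 Neo values. Bmp8b, the antagonist gene Chrdl1 and the homeobox genes Msx2 and Dlx5 each had 0 HDAC4 values and 2 Neo values. Bmp7 had 1 HDAC4 value, at -0.67, and 4 Neo values, from -1.75 to -0.93. Over the whole array 387 probes had values on HDAC4 arrays alone and 3905 on Neo arrays alone. Why values are missing is not stated in the labels, and its part in these counts was not tested. Bmp2, Bmp3, Bmpr1b, Smad9 and Sp7 were among the 9 listed genes with a probe and no value on any array.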
